A study of Arabidopsis thaliana with 6 samples.

Results

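The transcripts of the chloroplast genome were examined in dark-grown Arabidopsis thaliana seedlings. The loci were taken by identifier: every row of the deposited count table whose locus begins with ATCG, the prefix of the chloroplast genome, and whose counts summed to at least 10 over the 6 libraries. There were 98 such loci among the 134 ATCG rows and the 38064 rows of the table. There were 3 libraries of the double mutant bdh1-1 bdh2-1, altered in a pair of BCL-DOMAIN HOMOLOG genes, and 3 of the wild type. All seedlings were kept for 5 days in darkness. The series title links the BDH proteins to the stability of SWI/SNF complexes, which remodel chromatin in the nucleus. Etiolated seedlings are named as the tissue in the labels, hypocotyls in the design text, and the number of seedlings per library is not given in the sources used here. Nothing in the labels says that the libraries came from separate cultures, so the p-values measure the spread between these libraries, which may be technical.

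The chloroplast genome is a small circular genome that encodes part of the photosynthetic machinery, part of the plastid ribosome, subunits of a bacterial-type plastid RNA polymerase, and the plastid's own rRNAs and tRNAs. It is transcribed by that polymerase, which needs nuclear-encoded sigma factors, and by phage-type polymerases encoded in the nucleus. Chloroplast genes are often transcribed together as long precursors that are cut and trimmed by nuclear-encoded proteins. Chloroplast mRNAs do not carry the stable poly(A) tail of nuclear mRNAs, and short A-rich tails on chloroplast RNA mark it for decay. In darkness the organelle is an etioplast, which holds a prolamellar body in place of stacked thylakoids and accumulates protochlorophyllide. The libraries were made from polyadenylated RNA, so the values below describe the chloroplast RNA that was captured by that selection and not the whole chloroplast RNA pool. Fewer plastids, fewer genome copies and less RNA per plastid cannot be told apart in such values.

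The reference annotation used here (TAIR10.1) lists chloroplast genes under other locus tags and does not pair the ATCG identifiers with gene symbols. Loci are therefore named by identifier, except for 6 that notes on related nuclear genes in that annotation describe. These are ATCG00670 (plastid-encoded ClpP, the proteolytic subunit of the Clp protease), ATCG00530 (a CemA-like protein of proton extrusion), ATCG00430 (entered as photosystem II reaction center protein G), ATCG00660 (ribosomal protein L20), ATCG00750 (ribosomal protein S11) and ATCG01310 (ribosomal protein L2). Of these, ATCG01310 had too few counts to be included. No sequence is shown, because no file used here ties a sequence to these identifiers.

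Library totals lay between 40876788 and 44982000 counts. Chloroplast transcripts took a very small share of them, between 0.0249% and 0.0373% of the total. The marker of dark-grown seedlings PORA, a protochlorophyllide reductase gene, had 685 to 1246 CPM (library-scaled counts: the count over the total of its library, times 1000000) in the mutant and 511 to 630 CPM in the wild type. The 5 root markers summed to 340 to 407 CPM in the mutant and 253 to 349 CPM in the wild type, with IRT1 at 0 in 4 of the 6 libraries. Nearly all of this sum came from CASP1 (mean 194 CPM over the 6 libraries) and PHT1;1 (140 CPM). NRT2.1 and EXPA7 had means of 1.42 and 0.392 CPM. PHT1;1 was itself higher in the mutant (edgeR adjusted p 0.0269), and CASP1 was not called. The 8 seed storage genes summed to 0.889 to 2.05 CPM in the mutant and to 0.580, 54.4 and 92.7 CPM in wild-type libraries 1, 2 and 3. Nuclear light-harvesting genes LHB1B1, CAB2 and CAB3 summed to 221 to 402 CPM in the mutant and 1052 to 1775 CPM in the wild type. Each was called as lower in the mutant, with log2 fold changes of -2.62, -1.93 and -1.69 (edgeR adjusted p at most 0.00139). The part of this difference in the chloroplast values was not tested. PORA was called as higher in the mutant (log2 fold change 0.78, edgeR adjusted p 0.0126).

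The summed level of the 98 loci did not separate the genotypes. It was 301.5, 350.1 and 260.0 CPM in mutant libraries 1, 2 and 3, against 289, 249 and 373 CPM in wild-type libraries 1, 2 and 3. The lowest and the highest library were both wild type, and the mutant values lay between them. The means were 303.9 ± 45.1 CPM in the mutant and 304.0 ± 63.4 CPM in the wild type (SD, n = 3 each). Without wild-type replicate 3, the highest library, the wild-type mean was 269 CPM.

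For the other organelle genome, 11 mitochondrial loci (ATMG rows chosen with the same minimum) summed to 1270, 1233 and 1141 CPM in mutant libraries 1, 2 and 3, against 842, 957 and 1026 CPM in wild-type libraries 1, 2 and 3. Here every mutant library lay above every wild-type library. One mitochondrial locus held 73.2% of these counts, so this sum largely describes that locus. No test was made of the difference between the organelles.

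**Figure D1:**
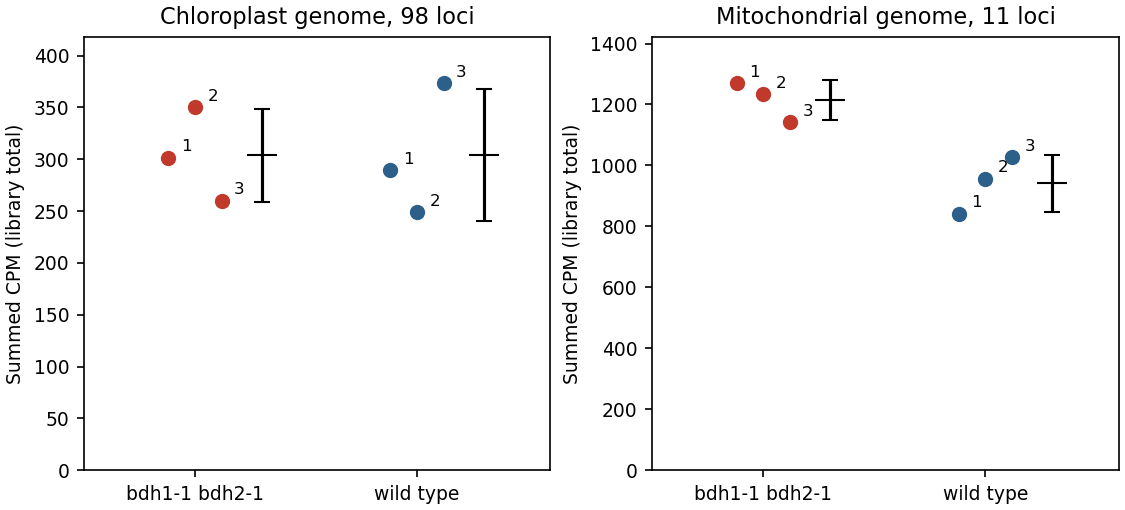
Summed CPM (vertical axes, from 0) of chloroplast loci (left) and mitochondrial loci (right) in the 3 mutant and 3 wild-type libraries; points are libraries numbered by replicate, and the bars beside them give the mean ± SD. The chloroplast sums of the groups overlap, with wild-type replicate 3 highest at 373 CPM, while the mutant mitochondrial sums of 1141 to 1270 CPM all lie above the wild-type ones.

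The loci differed widely in level among themselves. Mean levels over the 6 libraries ran between 0.0379 and 21.8 CPM with a median of 1.37 CPM, and 14.9% of all tested genes of the series had a lower level than this median. At least 10 CPM was reached by 8 loci, 49 had a mean between 1 and 10 CPM, and 41 were below 1 CPM. The 10 highest loci held 43.5% of the counts. CPM values are not corrected for length, so the order of loci describes captured reads and not molecules.

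The highest locus was ATCG00490, with 23.0, 31.4 and 17.4 CPM in mutant libraries 1, 2 and 3 and 16.3, 20.2 and 22.3 CPM in wild-type libraries 1, 2 and 3. The groups overlapped, and the log2 fold change was 0.31 with a 95% interval of -0.09 to 0.72 (edgeR adjusted p 0.233). Next was ATCG00190, at 17.6 ± 4.44 CPM in the mutant and 18.2 ± 3.97 CPM in the wild type (SD, n = 3 each), with a fitted log2 fold change of -0.01. ATCG00480 followed at 18.2 ± 1.82 CPM in the mutant and 15.2 ± 2.59 CPM in the wild type (SD, n = 3 each), with a fitted log2 fold change of 0.29 that was not called. The ranges of these 3 loci overlapped, so their order is not firm.

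Of the 134 ATCG rows, 36 were below the minimum, and 19 of these were at 0 in every library. In the reference chloroplast genome of 154478 bases, a repeat of 26264 bases is present as 2 identical copies, and 31 of the 129 annotated genes lie wholly inside it while 6 lie partly inside. How the authors counted reads that match more than 1 place is not given in the sources used here. Whether the rows near 0 belong to the repeat was not tested, since the identifiers are not paired with positions. A copy in the nuclear genome, with 95% identity over 100 bases or longer, was found for 5.35% of chloroplast bases, and one in the mitochondrial genome for 3.07%.

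The comparison of the genotypes asked which chloroplast transcripts differ when both BDH genes are mutated. Enough counts for a test were found at 90 of the 98 loci. They were tested in a quasi-likelihood fit of edgeR over 20791 genes, and p-values were adjusted by the method of Benjamini and Hochberg over all of these. Past an adjusted p of 0.05 were 2 chloroplast loci, ATCG00630 as higher and ATCG00500 as lower in the mutant. Over all tested genes 23.5% were called, 12.1% as higher and 11.3% as lower. Among genes in the same range of level as the chloroplast loci, not matched in level within it, 20.6% were called. In the authors' deposited table, 2 of the 98 loci had an adjusted p under 0.05, 1 higher and 1 lower, where 24.0% of all listed genes did.

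ATCG00630 had 631, 446 and 602 counts in mutant libraries 1, 2 and 3, against 373, 401 and 350 counts in wild-type libraries 1, 2 and 3. Every mutant library was above every wild-type library. The level was 12.8 ± 1.65 CPM in the mutant and 8.38 ± 0.549 CPM in the wild type (SD, n = 3 each). The log2 fold change was 0.64 (SE 0.14, 95% interval 0.33 to 0.96; edgeR adjusted p 0.0112). Without mutant replicate 1 it was 0.57 and no longer past the threshold (edgeR adjusted p 0.0620). For ATCG00630 the authors' deposited table holds 0.58 as log2 fold change and 0.000943 as adjusted p.

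ATCG00500 had 29, 33 and 16 counts in mutant libraries 1, 2 and 3, against 67, 49 and 58 counts in wild-type libraries 1, 2 and 3. Every mutant library was below every wild-type library. The level was 0.603 ± 0.229 CPM in the mutant and 1.30 ± 0.201 CPM in the wild type (SD, n = 3 each). The log2 fold change was -1.08 (SE 0.31, 95% interval -1.78 to -0.38; edgeR adjusted p 0.0342). The call was lost without mutant replicate 1 (edgeR adjusted p 0.0946), mutant replicate 3 (0.0957), wild-type replicate 1 (0.117) or wild-type replicate 3 (0.0824), although the log2 fold change stayed between -1.14 and -0.82 in these fits. For ATCG00500 the authors' deposited table holds -0.79 as log2 fold change and 0.0222 as adjusted p. The fold changes in that table lie closer to 0 than the fitted ones for both called loci. The gap was wider at some uncalled loci, as at ATCG01000 (-0.13 there, -1.41 here) and ATCG00240 (-0.08 there, -1.02 here). How the deposited fold changes were estimated is not given in the sources used here, so their sizes cannot be compared directly with the fitted ones.

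The other 88 tested loci did not pass the threshold. Of all 90, 42 had a positive and 48 a negative log2 fold change, with a median of -0.02 and quartiles at -0.33 and 0.18. The median over all tested genes was 0.00. With upper-quartile factors 46 were positive and the median was 0.01, and with library totals alone 33 were positive and the median was -0.05. The groups did not overlap for 7 of the 90 loci, 4 with the mutant above and 3 with it below, where 41.2% of all tested genes had no overlap, 19.3% with the mutant above and 21.9% with it below. An unadjusted p under 0.05 was found for 7 loci, where 38.7% of all tested genes had one.

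**Figure D2:**
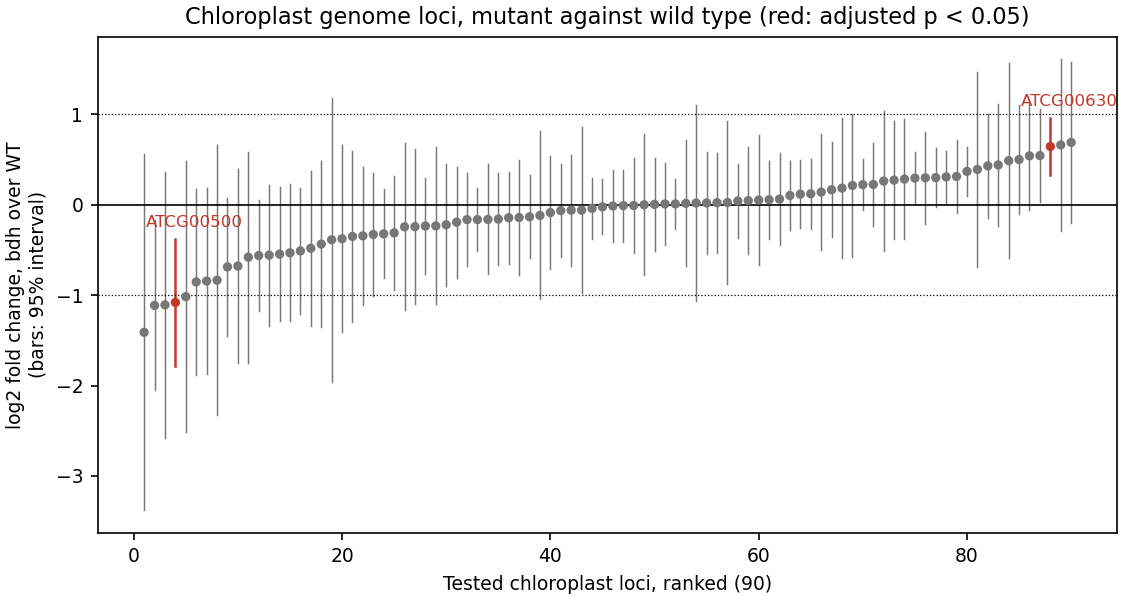
Log2 fold change of the mutant over the wild type (vertical axis) for the 90 tested chloroplast loci, ranked along the horizontal axis, with 95% intervals as bars and dotted lines at a 2-fold change. ATCG00500 and ATCG00630, in red, passed the threshold, and the remaining loci spread on both sides of 0.

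How large a difference could have been missed varied with the locus. The 95% interval lay within a 2-fold change in either direction for 51 of the 90 loci, and it reached past 2-fold for 39. Over all tested genes the interval lay within these bounds for 79.2%. The median standard error was 0.28 on the log2 scale for the chloroplast loci and 0.14 for all tested genes, and it was 0.17 for the other 12560 genes in the same range of level. The biological coefficient of variation fitted by edgeR is the spread between libraries of a group beyond counting error. Its median was 20.9% for the chloroplast loci, 14.6% for those other genes and 12.2% for all tested genes. The range of level ran from the lowest to the highest tested locus (average log2 CPM -1.88 to 4.44), and levels within it were not matched. Whether the chloroplast loci spread more at equal level was therefore not tested.

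Of the 5 highest log2 fold changes, only that of ATCG00630, described above, passed the threshold. ATCG00620 led with 13, 24 and 26 counts in mutant libraries 1, 2 and 3 and 12, 12 and 17 counts in wild-type libraries 1, 2 and 3; its log2 fold change was 0.69 (SE 0.40). ATCG00700 had 25, 30 and 13 counts in mutant libraries 1, 2 and 3 and 18, 17 and 10 counts in wild-type libraries 1, 2 and 3; its log2 fold change was 0.66 (SE 0.43). In both loci the lowest mutant library lay among the wild-type ones.

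ATCG00220 had 272, 214 and 143 counts in mutant libraries 1, 2 and 3 and 128, 145 and 180 counts in wild-type libraries 1, 2 and 3. Its mutant replicate 3 lay below 2 of the wild-type libraries. The log2 fold change was 0.54 (SE 0.23; edgeR adjusted p 0.112), and without mutant replicate 3 it was 0.76 and past the threshold (edgeR adjusted p 0.0241). ATCG00450 had 43, 44 and 35 counts in mutant libraries 1, 2 and 3 and 28, 28 and 32 counts in wild-type libraries 1, 2 and 3; its log2 fold change was 0.54 (SE 0.27; edgeR adjusted p 0.164). Its groups did not overlap in CPM.

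ATCG01020, chosen here after its values were seen, had the lowest adjusted p of the loci that were not called. Its counts were 439, 423 and 456 in mutant libraries 1, 2 and 3 and 405, 313 and 354 in wild-type libraries 1, 2 and 3. The groups did not overlap, and the log2 fold change was 0.37 (SE 0.12; edgeR adjusted p 0.0523). It passed the threshold with upper-quartile factors (edgeR adjusted p 0.0378), with DESeq2 (0.0467), with counts halved (edgeR adjusted p 0.0492) and without wild-type replicate 1 (0.0469).

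Of the 5 lowest log2 fold changes, 3 turned positive without wild-type replicate 3, and none of these 3 was called in any fit. ATCG01000 had 4, 13 and 10 counts in mutant libraries 1, 2 and 3, against 11, 3 and 63 counts in wild-type libraries 1, 2 and 3. Its log2 fold change was -1.41 (SE 0.88) with all libraries and 0.42 without wild-type replicate 3. ATCG00460 had 12, 21 and 32 counts in mutant libraries 1, 2 and 3, against 22, 18 and 109 counts in wild-type libraries 1, 2 and 3, and its log2 fold change of -1.11 (SE 0.66) became 0.17 without that library. In ATCG00240, with 28, 46 and 55 counts in mutant libraries 1, 2 and 3 and 35, 28 and 215 counts in wild-type libraries 1, 2 and 3, the log2 fold change of -1.02 (SE 0.67) became 0.51.

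ATCG01070 was lower in every mutant library, with 18, 12 and 15 counts in mutant libraries 1, 2 and 3 and 28, 20 and 55 counts in wild-type libraries 1, 2 and 3. Its log2 fold change was -1.11 (SE 0.42; edgeR adjusted p 0.0805). Without wild-type replicate 3 it was -0.62 (edgeR adjusted p 0.332), and without wild-type replicate 2 it was -1.37 and past the threshold (edgeR adjusted p 0.0369). The remaining locus of the lowest 5 was ATCG00500.

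**Figure D3:**
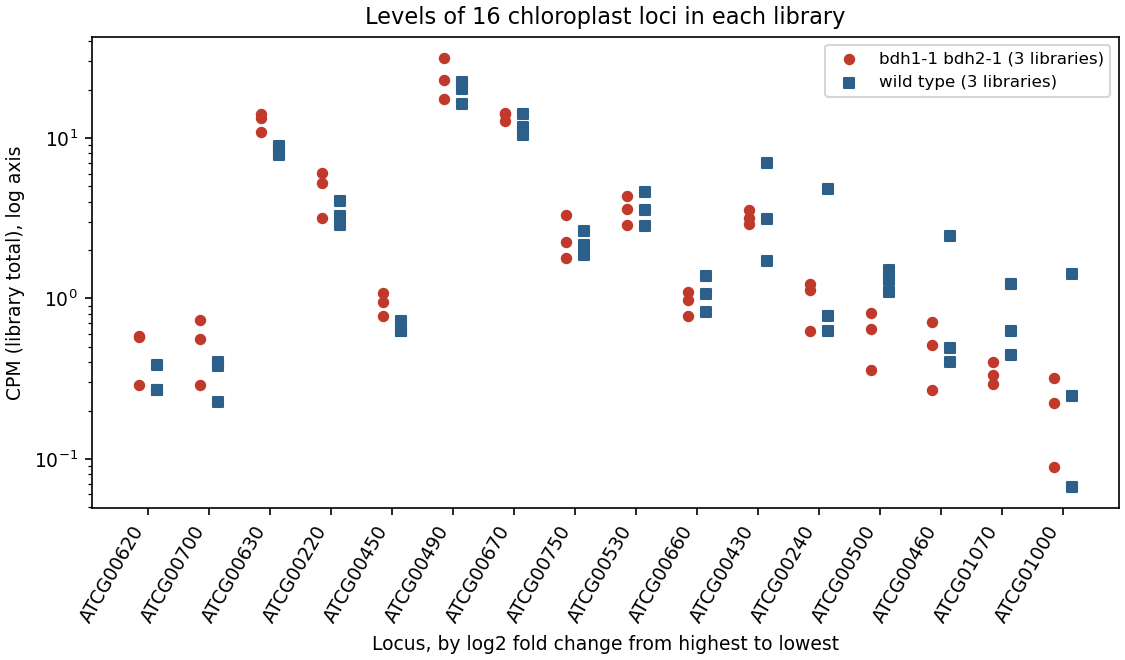
CPM of 16 chloroplast loci (log axis) in each library, mutant as circles on the left and wild type as squares on the right of each locus, ordered from the highest to the lowest log2 fold change. The groups do not overlap for ATCG00630, ATCG00450, ATCG01070 and ATCG00500, of which ATCG00630 and ATCG00500 were called. Over all tested genes 41.2% had no overlap. For ATCG00240, ATCG00460 and ATCG01000 a single wild-type library, replicate 3, lies far above the other 5.

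The loci described in the notes of the reference give a view by function. The protease subunit locus ATCG00670 had 648, 521 and 630 counts in mutant libraries 1, 2 and 3 and 527, 465 and 628 counts in wild-type libraries 1, 2 and 3. The groups overlapped, and the log2 fold change of 0.22 had a 95% interval of -0.06 to 0.51, which lies within a 2-fold change (edgeR adjusted p 0.227). Clp is the main soluble protease of the plastid stroma, and this subunit is the one the chloroplast genome encodes.

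Neither ribosomal protein locus was called. ATCG00660 (L20, of the large subunit) had 0.953 ± 0.163 CPM in the mutant and 1.09 ± 0.273 CPM in the wild type (SD, n = 3 each), with a fitted log2 fold change of -0.16 and an interval of -0.77 to 0.45. ATCG00750 (S11, of the small subunit) had 2.44 ± 0.780 CPM in the mutant and 2.22 ± 0.382 CPM in the wild type (SD, n = 3 each), with a fitted log2 fold change of 0.17 and an interval of -0.36 to 0.69. Both intervals lie within a 2-fold change.

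ATCG00530 (CemA-like), an envelope protein linked to proton movement, had 3.59 ± 0.741 CPM in the mutant and 3.65 ± 0.889 CPM in the wild type (SD, n = 3 each). Its log2 fold change was 0.01 with an interval of -0.45 to 0.47. ATCG00430 had 131, 146 and 143 counts in mutant libraries 1, 2 and 3 and 139, 77 and 310 counts in wild-type libraries 1, 2 and 3. Its protein, entered under an old photosystem II name, is now known as a subunit of the chloroplast NADH dehydrogenase-like complex. The log2 fold change was -0.24 with an interval of -1.10 to 0.62, which reaches past a 2-fold decrease, and it was 0.43 without wild-type replicate 3 (edgeR adjusted p 0.283).

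Wild-type replicate 3 stood apart over many loci. It was the highest of the 6 libraries in 37 of the 90 tested loci (41.1%), where it was highest in 18.8% of all tested genes. Mutant replicate 2 was highest in 25 loci (27.8%, against 21.3% of all tested genes) and mutant replicate 1 in 11 (12.2% against 9.91%). Wild-type replicate 1 was highest in 11 (12.2% against 22.1%) and wild-type replicate 2 in 4 (4.44% against 11.7%). Mutant replicate 3 was highest in only 2 (2.22% against 16.2%). In 10 loci wild-type replicate 3 was at least 2 times the next library, a choice made after the values were seen. No other library reached this in any of the 90 loci. Over all tested genes wild-type replicate 3 did so in 0.303%, and the other libraries did so in 0.0192% to 0.0914%. These shares are not matched in level. The median level was 1.37 CPM for the chloroplast loci and 13.2 CPM for all tested genes. Whether genes at the level of the chloroplast loci show the same was not tested.

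The 10 loci were ATCG01000, ATCG00240, ATCG00460, ATCG00320, ATCG00210, ATCG00030, ATCG00170, ATCG00360, ATCG01010 and ATCG01130. In them wild-type replicate 3 was 2.11 to 4.45 times the next library. The largest of them in counts was ATCG00170, with 218, 299 and 236 counts in mutant libraries 1, 2 and 3 and 312, 243 and 730 counts in wild-type libraries 1, 2 and 3. ATCG01130 had 209, 298 and 276 counts in mutant libraries 1, 2 and 3 and 275, 241 and 683 counts in wild-type libraries 1, 2 and 3. In both, 1 wild-type library was far above the rest, and in CPM the other 2 lay within the range of the mutant.

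The choice of these loci by a high wild-type library favours a negative log2 fold change with it and a less negative one without it, so the signs that follow are a description. All 10 had a negative log2 fold change with all libraries, between -1.41 and -0.48, and none was called (lowest edgeR adjusted p 0.166). Without wild-type replicate 3, 8 of the 10 were positive, with values between -0.31 and 0.51, and none was called (lowest edgeR adjusted p 0.312). Wild-type replicate 3 was singled out for its high chloroplast values, so leaving it out favours positive values over all chloroplast loci too. Over the chloroplast loci as a whole, 62 of 91 tested were positive without that library and the median log2 fold change was 0.13. The share of positive values over all tested genes in that fit is not given here. Then 1 locus, ATCG00630, was called, as higher (edgeR adjusted p 0.0472), where 12.7% of all tested genes were called and 6.88% as higher. With the 10 loci left out of the sum, the remaining loci had 286, 328 and 241 CPM in mutant libraries 1, 2 and 3, against 270.0, 232 and 316 CPM in wild-type libraries 1, 2 and 3. The summed seed storage genes were highest in wild-type replicate 3, at 92.7 CPM, of which CRA1 alone gave 71.6 CPM. CRA1 and PAP85 were highest in that library. CRU2, CRU3, SESA1, SESA2, SESA3 and SESA4 were highest in wild-type replicate 2, which had the lowest chloroplast sum of all libraries. The part of the seed storage genes in the chloroplast values was not tested.

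**Figure D4:**
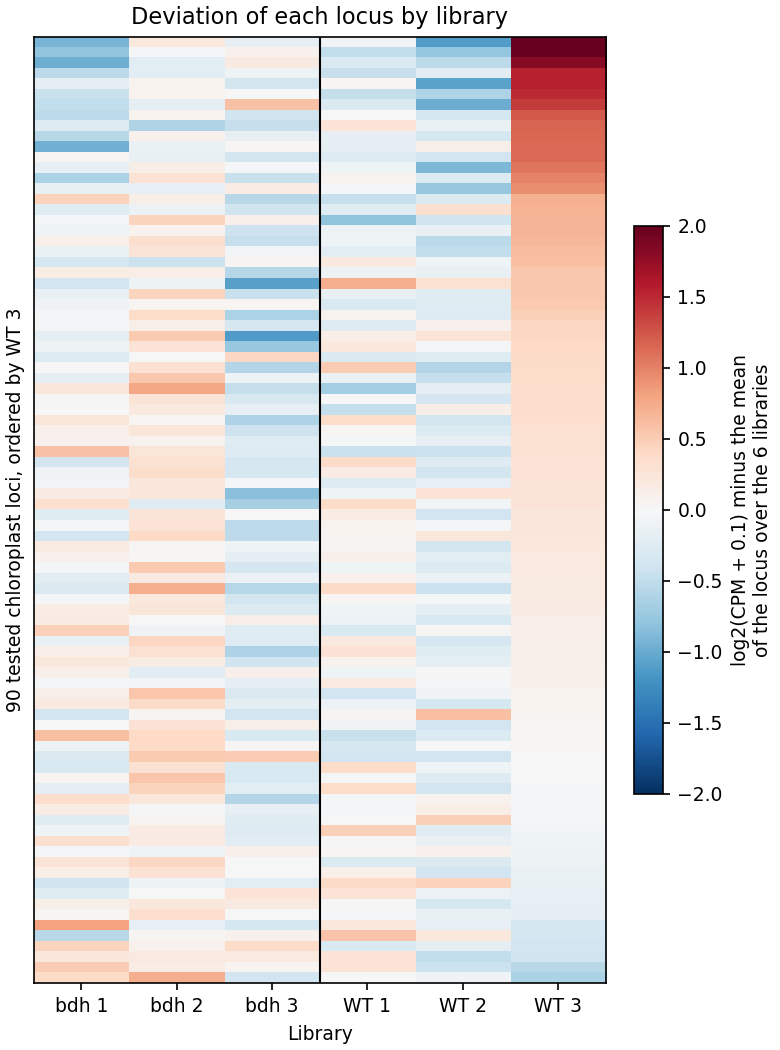
Deviation of log2(CPM + 0.1) from the mean of each locus over the 6 libraries (colour, red above and blue below), for the 90 tested chloroplast loci in rows and the 3 mutant and 3 wild-type libraries in columns. Rows are ordered by wild-type replicate 3, so its gradient follows from the ordering. A reader should see the 37 loci in which that library was the highest, beside mutant replicate 2, highest in 25.

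The 8 loci that were not tested had summed counts of 10 to 58. ATCG01040, chosen after its values were seen, was the only one of them whose groups did not overlap, with 11, 8 and 12 counts in mutant libraries 1, 2 and 3 and 4, 4 and 5 counts in wild-type libraries 1, 2 and 3. The wild-type counts lay near the floor of 3 counts. ATCG01170 had 2, 2 and 4 counts in the mutant and 0, 0 and 2 in the wild type, at or near that floor in every library.

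Low counts at the chloroplast loci were even numbers less often than those of other genes. Among values between 1 and 20 counts, 53.5% of the 127 chloroplast values were even numbers, against 74.9% of the 26354 values of other genes. The chloroplast values came from loci with a summed count of at least 10, and the others from all rows outside ATCG without that minimum. How the mates of a read pair were counted is not given in the sources used here. With all counts halved, 77 chloroplast loci were tested and 3 were called, ATCG00630, ATCG01020 and ATCG00500. In that setting 4908 of all 19751 tested genes were called.

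The nuclear genes whose products transcribe and process chloroplast RNA were examined beside the chloroplast loci. Of 35 such genes, all tested, 4 were called as higher and 4 as lower in the mutant, and their median log2 fold change was -0.02. That count is close to the share over all tested genes, 23.5% with 12.1% higher and 11.3% lower, and the median of all tested genes was 0.00. Without mutant replicate 1 the number called was 2, where 8.60% of all tested genes were called. It was 4 without wild-type replicate 1, where 11.2% were called, and 4 without wild-type replicate 3, where 12.7% were called.

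Among the 8 genes for nuclear-encoded polymerases and sigma factors, 1 was called, as lower, where 11.3% of all tested genes were called as lower. This was SCA3 (RPOTp, AT2G24120), the phage-type RNA polymerase of plastids. It had 4.45, 5.75 and 3.94 CPM in mutant libraries 1, 2 and 3, against 10.4, 8.56 and 11.9 CPM in wild-type libraries 1, 2 and 3. The groups did not overlap, and the log2 fold change was -1.10 (SE 0.16; edgeR adjusted p 0.00203). All 17 alternative fits called it, with log2 fold changes between -1.23 and -0.86. SCA3 overlaps another annotated gene on the same strand, so its reads may be shared. None of the 6 sigma factor genes, which direct the bacterial-type polymerase to promoters, was called. Only SIG5 (AT5G24120) among them had an unadjusted p under 0.05 (edgeR p 0.0196, adjusted p 0.0689). For SIG5 the authors' deposited table holds -0.42 as log2 fold change and 0.0424 as adjusted p, which is past the threshold.

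Of 13 genes for proteins associated with the bacterial-type polymerase, 3 were called as higher and 1 as lower, where 12.1% and 11.3% of all tested genes were. PTAC7 (PAP12, AT5G24314) had 31.6 ± 4.32 CPM in the mutant and 19.7 ± 3.84 CPM in the wild type (SD, n = 3 each); its log2 fold change was 0.71 (SE 0.14; edgeR adjusted p 0.00802). FLN1 (PAP6, AT3G54090), a fructokinase-like protein, had 12.1 ± 2.33 CPM in the mutant and 7.76 ± 0.559 CPM in the wild type (SD, n = 3 each); its log2 fold change was 0.67 (SE 0.14). FSD3 (PAP4, AT5G23310), a plastid iron superoxide dismutase, had a log2 fold change of 0.53, and PTAC6 (PAP8, AT1G21600) one of -0.33. PTAC7 kept its call in all 17 alternative fits. FLN1 lost it without mutant replicate 1 (edgeR adjusted p 0.0545), and FSD3 and PTAC6 lost it in 7 and 5 fits. PTAC7 and PTAC6 each overlap a gene on the opposite strand. FLN2 (AT1G69200) was not called (edgeR adjusted p 0.0524), while the authors' deposited table holds 0.0379 as its adjusted p.

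Of 14 genes for processing and decay of chloroplast RNA, 1 was called as higher and 2 as lower, where 12.1% and 11.3% of all tested genes were. RNEE/G (RNE, AT2G04270), the plastid RNase E, had 23.8 ± 3.88 CPM in the mutant and 37.4 ± 7.58 CPM in the wild type (SD, n = 3 each); its log2 fold change was -0.62 (SE 0.15; edgeR adjusted p 0.0162). HCF107 (AT3G17040), which stabilises the ends of a photosystem II transcript, had 29.1 ± 11.8 CPM in the mutant and 55.2 ± 15.8 CPM in the wild type (SD, n = 3 each), with a fitted log2 fold change of -0.90, and its groups overlapped. In the authors' deposited table HCF107 was not past the threshold (log2 fold change -0.52, adjusted p 0.0720). PGR3 (AT4G31850), a pentatricopeptide repeat protein that acts on chloroplast transcripts, was higher with a log2 fold change of 0.38. RNEE/G lost the call in 4, HCF107 in 6 and PGR3 in 6 of the 17 alternative fits. RNEE/G overlaps a gene on each strand and PGR3 overlaps 2 on the opposite strand.

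**Figure D5:**
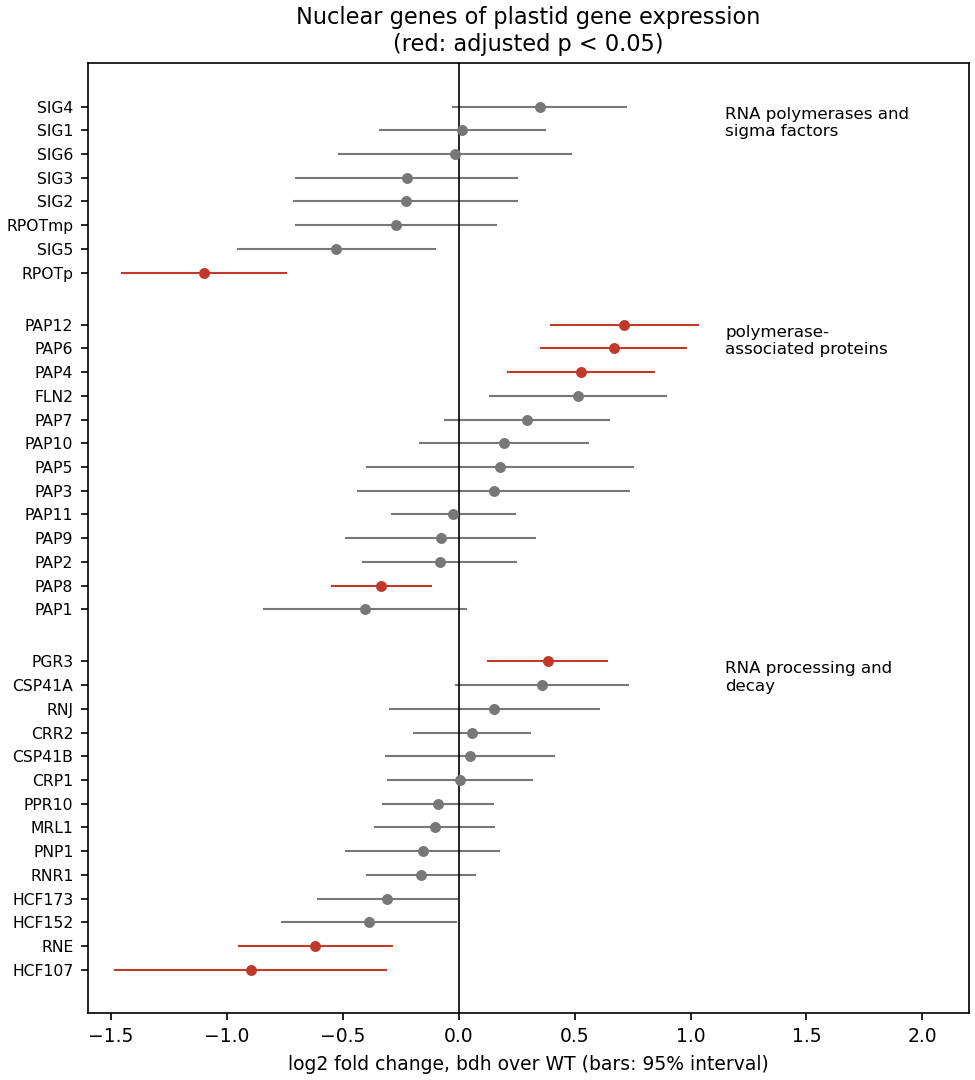
Log2 fold change of the mutant over the wild type (horizontal axis) with 95% intervals for 35 nuclear genes of chloroplast transcription and RNA processing, in 3 groups, with genes past the threshold in red. RPOTp (SCA3) lies furthest to the left at -1.10 and PAP12 (PTAC7) furthest to the right at 0.71.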

How the data were processed

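Polyadenylated RNA was sequenced from strand-specific libraries, 3 per genotype, per the labels' protocols. The submitters' processing notes name TAIR10, STAR 2.7.10b, featureCounts, Subread 2.0.3 and DESeq2 1.38; strand and multi-mapping settings are not given in the sources used here. The counts the authors deposited are whole numbers for each gene and are not normalized. The authors' deposited table holds, per the file headers, a mean normalized signal, a log2 fold change and its error, and p-values.

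Here counts were filtered by filterByExpr and tested with edgeR 4.0.16 in R 4.3.3 (TMM factors of 0.962 to 1.04, glmQLFit, glmQLFTest, no covariate, Benjamini-Hochberg over all genes, threshold 0.05). Printed CPM are per library total without TMM factors, so a fold change can differ slightly from a ratio of levels. The SE is the absolute log2 fold change over the square root of F. At or under 3 counts was treated as floor. Intervals are at 95%. The test was checked on simulated counts.

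The locus choice and gene lists were made with earlier results of these data known. Loci were to be named by role from annotated symbols. As the annotation pairs none with ATCG identifiers, the named loci are the 5 highest and 5 lowest log2 fold changes, those called, the highest level and those described in reference notes; of the machinery lists, genes past the threshold. Matches between genomes used blastn 2.17.0.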

Additional observations from a re-analysis of the deposited data

How the results depend on the processing

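Alternatives were RLE, upper-quartile or no scaling factors, scaling or library totals without organelle genes, DESeq2 1.42.0, other filters, a replicate block, halved counts, length offsets and each library left out; the newer quasi-likelihood method was added after seeing the data. Length offsets could not be given to the chloroplast loci, which have no paired length, and were run for nuclear genes alone. The chloroplast loci called numbered 2 to 3 in the scaling, filter, DESeq2, newer-method and halved-count settings, and those called higher were 2 with upper-quartile factors, DESeq2 and halved counts. All genes called in these settings ran from 4612 with library totals alone to 5768 with DESeq2, each of 20791 tested. The share of all genes called as higher is not given for these settings. Same-numbered libraries did not deviate together (correlations of 0.05, -0.28 and -0.17 over 20791 genes), and unlike-numbered ones had correlations from -0.16 to 0.31. With 3 libraries per group this check cannot exclude that the numbers pair libraries, and the labels do not say. With the replicate block 0 chloroplast loci were called, 0 higher and 0 lower. That fit called 2090 of all 20791 tested genes and 3 of the 35 machinery genes. An unadjusted p under 0.05 was found for 5 chloroplast loci with the block and 7 without it. Over all tested genes that share was 38.7% without the block and is not given with it. ATCG00630 narrowly missed the threshold with the block, and ATCG00500 had an edgeR adjusted p of 0.0729. DESeq2, without the block, called 3.

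Without 1 library, 0 to 4 chloroplast loci were called, 0 to 2 higher and 0 to 3 lower. The 0 came without mutant replicate 1, where 6 had an unadjusted p under 0.05 and 8.60% of all tested genes were called. The 4 came without wild-type replicate 2, where 5558 of all 21088 tested genes were called. For these fits the share of all genes with an unadjusted p under 0.05 is not given. The share by direction is given only for the fit without wild-type replicate 3 (6.88% higher). The median log2 fold change of the tested loci ran from -0.15 to 0.13, and the log2 ratio of the summed levels, -0.00 with all libraries, from -0.13 to 0.17, all within the spread between libraries. All genes called ran from 1811 to 5558 and machinery genes from 2 to 10. Some uncalled loci changed sign. Over the fits that leave out 1 library the log2 fold change ran from -1.92 to 0.42 for ATCG01000, -1.49 to 0.17 for ATCG00460, -1.43 to 0.51 for ATCG00240, -0.58 to 0.43 for ATCG00430 and -0.33 to 0.014 for ATCG00660, each positive only without wild-type replicate 3. It ran from -0.12 to 0.18 for ATCG00530, which was also -0.024 with library totals alone, and from -0.074 to 0.34 for ATCG00750, negative only without mutant replicate 2. The cause was not tested beyond the library left out. The 95% interval reached past a 2-fold change at 39 of the 90 loci.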
